A study of Homo sapiens with 27 samples.

Results

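LINC genes are long intergenic noncoding RNA genes that carry a number in place of a functional name. The genes described here were chosen by their counts: their symbol begins with LINC and a number, and their counts summed over the 12 RNA-seq libraries reached at least 50. Of 880 such symbols in the count table of 26485 genes, 207 passed, 352 had no count in any library, and the rest had 1 to 49. Because the sum ran over all libraries, a gene that is high in a single line could pass through that line. LINC01519 did so, with 37 of its 51 counts in one line. LINC00592 and LINC01134 lay just inside the limit with 50 counts each, and LINC00920 and LINC00271 just outside it with 48 and 47.

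The libraries came from T47D, an established luminal breast cancer cell line that expresses the estrogen receptor. The control cells carried an empty lentiviral vector, and the other 3 lines stably expressed a truncated form of the transcription factor GATA3: Splice del, from a deletion at a splice site, and C321fs and A333fs, from frameshifts, all without part or the whole of the second zinc finger. Each line was 1 puromycin-selected pool with 3 libraries, the mutants carried a Ty1 tag, and all lines kept their own wild-type GATA3, so a gene-level count of GATA3 does not separate the introduced from the resident form. The comparison asks which LINC transcripts differed between each mutant line and the control, and between the mutant lines.

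Most LINC transcripts are spliced, polyadenylated and kept at low levels, and many are made in few cell types. Some act in the nucleus on neighbouring genes, some bind proteins or microRNAs in the cytoplasm, and for many no function is known. A further group was given LINC symbols before a short open reading frame was recognised, and these encode small proteins. GATA3 works with FOXA1 and the estrogen receptor at luminal enhancers, where noncoding transcripts are often made.

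The libraries held 27872208 to 36788024 counted read pairs, of which the LINC genes took 0.139 to 0.151% in the control and 0.168 to 0.187% in the mutant lines. CPM values, which are counts scaled to library totals of equal size with TMM factors, are used throughout for levels. Summed over all 207 genes, the level was 1578 to 1636 CPM in the control libraries, 1731 to 1780 in Splice del, 1659 to 1703 in C321fs and, in A333fs, 1755 to 1780. The luminal markers KRT8, KRT18, KRT19, EPCAM, CDH1, ESR1, PGR, FOXA1 and GATA3 were at 195 CPM or more in every library, whereas TFF1, an estrogen-responsive gene of luminal cells, was at 1.68 to 5.97 CPM. Of 12 markers of other cell types, PTPRC was at 0 in every library and COL1A1 (28.0 to 59.8 CPM) and CD68 (2.71 to 4.78 CPM) were the highest. A measure of base composition moved with the line. Each gene's log2 level in a library was taken relative to its own mean over all libraries. The slope of this value on GC content was 0.15 to 0.23 log2 units per 10 percentage points in the control libraries and -0.17 to 0.06 in the mutant libraries. As the slope goes with the line, a technical origin and a change in expression cannot be told apart. Results were therefore computed also with each library's trend over GC content and exon length removed, and values are given below where a call described was lost.

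The promoter windows of 4 genes with large or widely shared changes are shown as examples: LINC01016 and LINC01355 were higher in all 3 mutant lines, LINC01468 had a rise of over 1.6 log2 units in both Splice del and A333fs, and LINC00312 had the strongest decrease. LINC00839 rose by a similar amount in Splice del and A333fs (1.77 and 1.8), and its window is not shown. Each is the RefSeq window of 250 bases before to 50 bases after the gene's start (GRCh38.p14), 5′ to 3′ on the gene's strand. Capitals mark matches on either strand to GATA words (the words AGATAA and TGATAA, with the forms AGATAG and TGATAG), to forkhead words (TGTTTAC and also TGTTTGC), which FOXA1 binds, or to AGGTCA, the single site of the estrogen receptor.

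LINC01016, chr6:33896858-33897157, minus strand: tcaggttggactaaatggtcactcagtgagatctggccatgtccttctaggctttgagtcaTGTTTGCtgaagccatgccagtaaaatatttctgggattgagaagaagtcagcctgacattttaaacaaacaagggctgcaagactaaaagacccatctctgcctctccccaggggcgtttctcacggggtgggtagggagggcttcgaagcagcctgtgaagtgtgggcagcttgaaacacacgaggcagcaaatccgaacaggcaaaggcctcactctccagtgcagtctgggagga
LINC01355, chr1:23285469-23285768, minus strand: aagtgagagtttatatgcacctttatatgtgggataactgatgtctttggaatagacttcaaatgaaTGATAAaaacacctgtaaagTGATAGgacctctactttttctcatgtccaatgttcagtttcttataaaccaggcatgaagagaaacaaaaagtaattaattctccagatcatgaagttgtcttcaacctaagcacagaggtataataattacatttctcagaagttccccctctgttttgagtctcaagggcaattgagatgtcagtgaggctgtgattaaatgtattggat
LINC01468, chr10:52470484-52470783, minus strand: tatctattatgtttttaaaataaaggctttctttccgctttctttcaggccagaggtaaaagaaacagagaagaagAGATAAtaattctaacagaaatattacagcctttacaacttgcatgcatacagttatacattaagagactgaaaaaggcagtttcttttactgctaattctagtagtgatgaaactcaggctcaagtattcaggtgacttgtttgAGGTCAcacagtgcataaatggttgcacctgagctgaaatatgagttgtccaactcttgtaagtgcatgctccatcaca
LINC00312, chr3:8571532-8571831, plus strand: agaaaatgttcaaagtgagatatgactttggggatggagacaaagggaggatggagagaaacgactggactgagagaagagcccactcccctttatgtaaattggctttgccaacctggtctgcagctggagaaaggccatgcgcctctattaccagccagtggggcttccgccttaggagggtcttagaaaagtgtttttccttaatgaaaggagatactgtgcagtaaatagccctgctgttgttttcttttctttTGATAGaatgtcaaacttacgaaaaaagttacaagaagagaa

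A RefSeq promoter window was matched for 156 of the 207 genes, and the RefSeq start lay within 100 bases of the count table's start for 142 of them. A GATA word occurred in 24.4% of these 156 windows and in 25.5% of all 27305 windows of the table. AGGTCA occurred in 19.9% against 13.9% of all windows, and a forkhead word in 6.41% against 7.15%. The inverted repeat of GGTCA with a gap of 3 bases, a fuller estrogen receptor element, was in 0 of the 156 and in 0.0659% of all windows. Among the 18 windows of genes called against control, 7 held a GATA word (38.9%), including those of LINC01355, LINC01468 and LINC00312 shown above. Another of the 7 is LINC00176, whose RefSeq start lies 1838 bases from the count table's start. Of the same 18 windows, 4 held AGGTCA (22.2%) and 2 a forkhead word (11.1%), so the shares of all 3 words were above those of all windows. These differences were not tested. A match to these letters is not a measured binding site.

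Levels were compared per kilobase of exon, as CPM divided by the gene's exon length. The median over the 176 tested LINC genes was 0.943 CPM per kb against 6.79 for all 14789 tested genes, and their median exon length was 2193 against 3148 bases. The highest were LINC00657 (103.7 CPM per kb), LINC00493 (88.3), LINC01578 (58.7), LINC01420 (46.6), LINC00998 (30.5), LINC00665 (17.4), LINC00938 (15.1) and LINC00674 (13.8). LINC00657 is NORAD, a cytoplasmic RNA that binds PUMILIO proteins, and it alone made up 32.5% of the summed level. LINC00493, LINC01420 and LINC00998 now carry the protein names SMIM26, NBDY and SMIM30, and LINC01578 is CHASERR, which lies beside the chromatin remodeler gene CHD2. In all, RefSeq lists 190 of the 207 genes as lncRNA, 15 as protein-coding and 2 as transcribed pseudogenes.

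**Figure D1:**
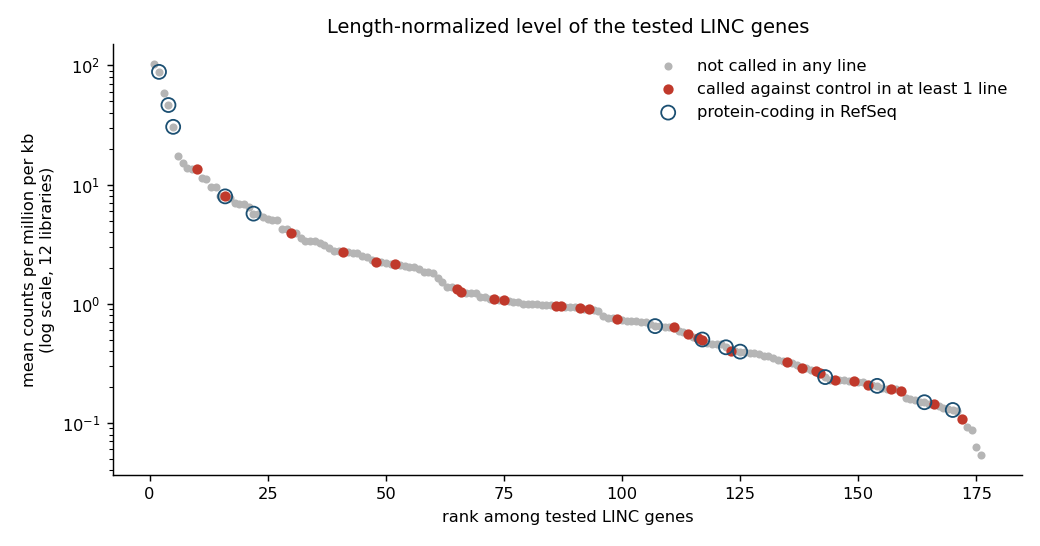
Mean CPM per kb of exon over 12 libraries (log axis) of the 176 tested LINC genes in order of level. Grey points were not called against control, red points were called in at least 1 mutant line, and blue rings mark genes that RefSeq lists as protein-coding; called genes lie along most of the range, and the 8 highest, led by LINC00657 at 103.7 CPM per kb, hold no call.

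A gene was called when the edgeR adjusted p was below 0.01 and the fold change above 1.5, and 176 of the 207 genes passed the filter on low counts. That filter asked for enough counts in 3 libraries, whichever line they came from. A gene low in the control could therefore be tested through a mutant line where it was high. LINC01468, LINC00839, LINC01249, LINC00536 and LINC00052 were among such genes, with too few counts in every control library. How far this weighs on the balance of calls below was not tested. In Splice del, 16 of the 176 rose (9.1%, with 6.21% of all tested genes called higher) and 2 fell (1.1%, against 4.53%). In C321fs, 13 rose (7.4%, against 4.63%) and 1 fell (0.6%, against 2.26%). In A333fs, 11 rose (6.2%, against 5.46%) and 4 fell (2.3%, against 6.81%). The balance of calls among LINC genes was thus toward higher levels in every mutant line, with 88.9, 92.9 and 73.3% of their calls upward, where 57.8, 67.2 and 44.5% of all calls were upward. With upper-quartile scaling the upward shares were 95, 95.8 and 76.5% for LINC genes and 79.1, 86.3 and 73.7% for all genes, and after each library's trend was taken out they were 76.9, 75 and 81.8% and 65.9, 71.6 and 71.9%. The 3 comparisons share the control libraries. In bulk RNA, a change in the share of cells that make a transcript and a change per cell cannot be told apart. The median log2 fold change of the LINC genes was 0.10, 0.12 and 0.06 in Splice del, C321fs and A333fs, and that of all tested genes 0.03, 0.02 and 0.01.

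All 3 libraries of a line lay above all 3 control libraries for 43, 44 and 31 of the 176 genes in Splice del, C321fs and A333fs, where 31.7, 27.3 and 31.2% of all genes did. They lay below for 25, 19 and 24, where 31.3, 26.7 and 34.3% of all genes did. The shares for LINC genes, 17.6 to 25% above and 10.8 to 14.2% below, were thus under those of all genes. The median level of the LINC genes was 2.16 CPM, against 24.8 CPM for all tested genes. In the edgeR F-test on the 3 mutant coefficients, 39 of the 176 differed among the 4 lines, where 56.2% of all tested genes did. Over the 3 lines, 31 of the 176 genes were called against control, where 19.3% of all tested genes were. Of these, 25 were upward (9.8% of all tested genes) and 6 downward (9.64%). No LINC gene was called in opposite directions in different lines (0.183% of all genes were). Of the 31, 18 were called in 1 line, 10 in 2 lines and 3 in all 3, against 11, 5.94 and 2.35% of all tested genes. Of the 47 calls, 28 were also made once the trend over GC content and length was taken out, and 21 held whichever library was left out.

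**Figure D2:**
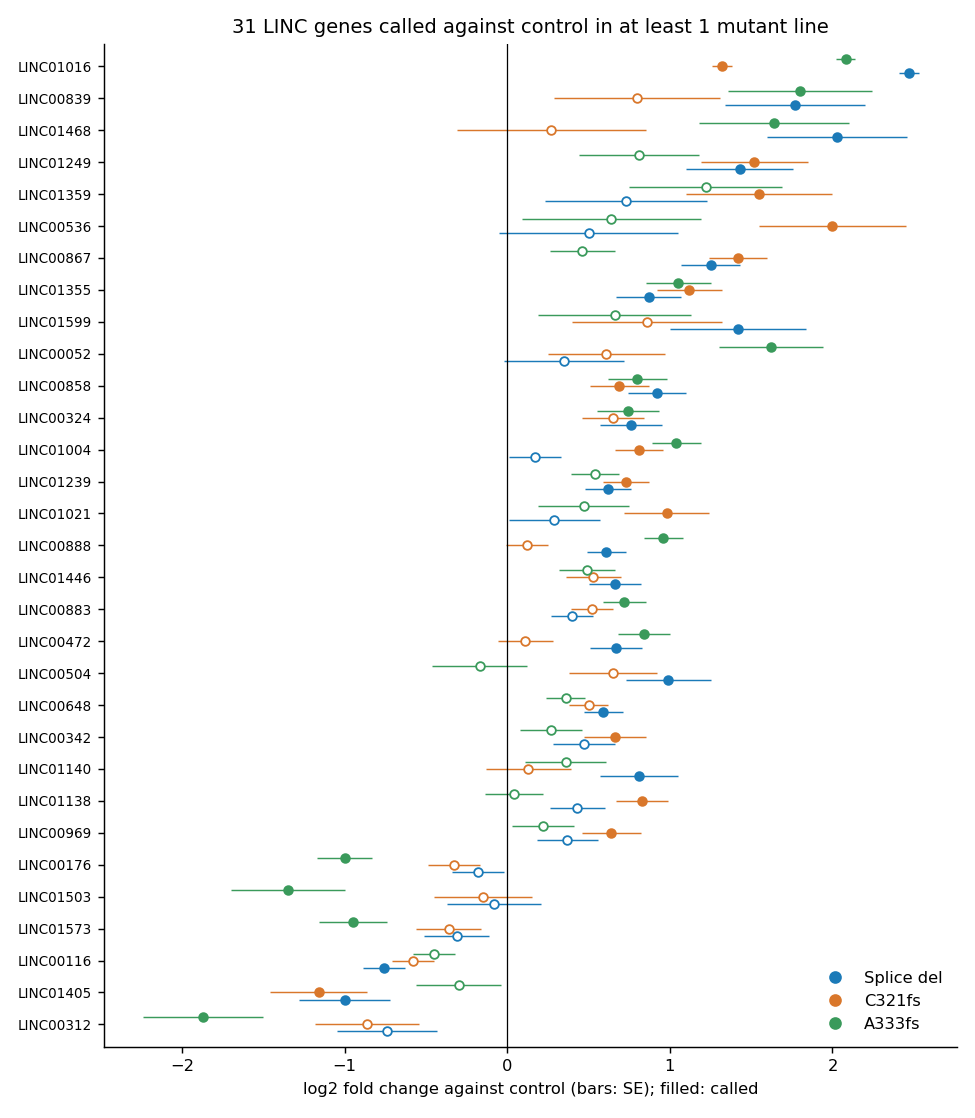
Log2 fold change against control (horizontal axis, bars give the SE) of the 31 LINC genes called in at least 1 mutant line, with Splice del in blue, C321fs in orange and A333fs in green and filled points for calls. LINC01016 stands at the top with 2.47, 1.32 and 2.08, and the 6 genes called downward stand at the bottom.

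A group of 3 genes was called higher in all mutant lines, where 1.6% of all tested genes were. LINC01016 is an estrogen-responsive transcript of breast cancer cells, and its gene (3 exon blocks, 47.5% GC) spans chr6:33889511-33896907. Its level was 12.8, 12.8 and 12.6 CPM in the control libraries, 70.6, 68.8 and 72.7 in Splice del, 31.5, 32.8 and 31.0 in C321fs cells, and 52.9, 57.3 and 51.8 in A333fs. The 4 lines did not overlap, in the order control, C321fs, A333fs and Splice del. Its log2 fold change against control was 2.47 ± 0.06 (SE, edgeR adjusted p = 1.57e-13) in Splice del, 1.32 ± 0.06 (1.28e-09) in C321fs cells and 2.08 ± 0.06 (1.25e-12) in A333fs. These calls held in every alternative and without any library. Without LINC01016, the summed level of the LINC genes was 1565 to 1623 CPM in the control, 1658 to 1711 in Splice del, 1627 to 1670 in C321fs cells and 1703 to 1723 in A333fs. LINC00657 alone held 32.5% of the sum over all the LINC genes, and its mean was higher in each mutant line, at values given below. By themselves, these sums therefore do not show a rise of the remaining genes as a group.

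LINC01355 (chr1:23281309-23285518, 35.2% GC) was at 1.56, 0.994 and 0.799 CPM in the control, 2.30, 2.10 and 1.71 in Splice del, 2.59, 2.43 and 2.27 in C321fs cells, and 2.42, 2.39 and 2.17 in A333fs. All mutant libraries lay above all control libraries, and the log2 fold changes were 0.87 ± 0.20, 1.12 ± 0.20 and 1.05 ± 0.20 (edgeR adjusted p = 0.00197, 0.000346 and 0.000337). Once the trend over GC content and length was taken out, the changes were 0.49, 0.69 and 0.70 with adjusted p of 0.0658, 0.0126 and 0.0114, so none of the 3 calls was kept. The Splice del call was also lost without Splice del replicate 1 or control replicate 2 or 3 (log2 fold change 0.69 to 0.79, adjusted p 0.0126 to 0.0137). LINC00858 was at 1.80, 1.57 and 1.25 CPM in the control, 3.38, 2.72 and 2.61 in Splice del, 1.98, 2.84 and 2.69 in C321fs cells, and 2.81, 2.62 and 2.64 in A333fs. Its changes were 0.92 ± 0.18, 0.69 ± 0.18 and 0.80 ± 0.18 (edgeR adjusted p = 0.000395, 0.00513 and 0.00118). The C321fs call was lost with the trend removed (0.56, adjusted p = 0.0144) and without C321fs replicate 2 or 3 or control replicate 2 or 3 (0.56 to 0.70, adjusted p 0.0172 to 0.0288).

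**Figure D3:**
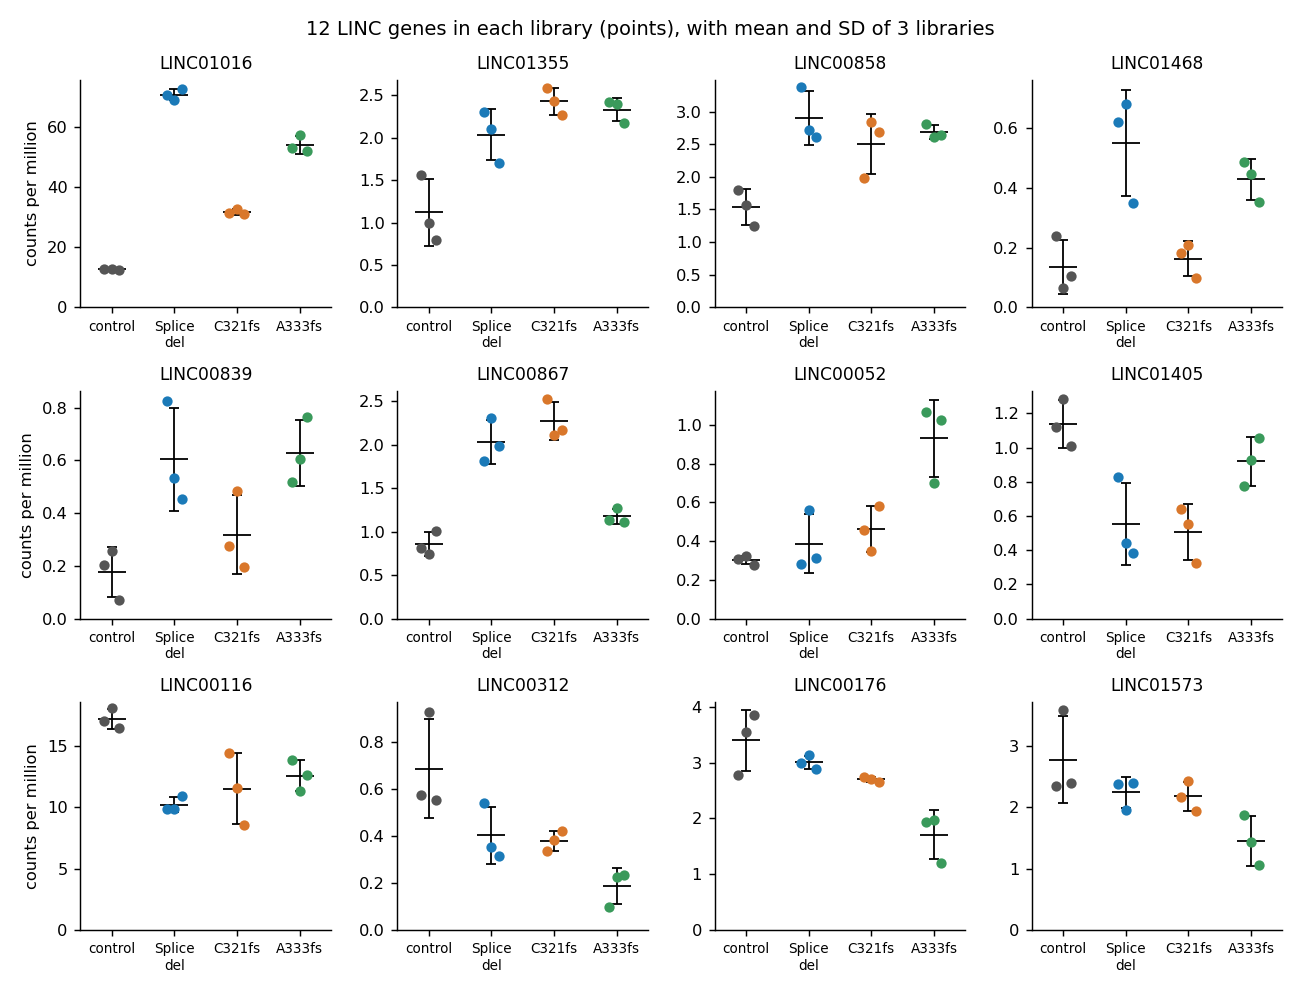
Level in CPM of 12 LINC genes in each library (points; 3 per line), with the mean and SD of each line as black bars and every vertical axis starting at 0. LINC01016 separates all 4 lines, LINC01468 and LINC00839 stand high in Splice del and A333fs, LINC00867 in Splice del and C321fs, and LINC00312, LINC00176 and LINC01573 are lowest in A333fs.

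A set of 5 genes was called higher in Splice del and A333fs and not in C321fs: LINC01468, LINC00839, LINC00888, LINC00472 and LINC00324. Counting every pair of lines and both directions, 10 of the 176 LINC genes were called in 2 lines, where 5.94% of all tested genes were. The shares of all tested genes for each single pair of lines were not computed. The split of the 10 genes by pair, here and in the paragraphs below, is therefore description only. LINC01468 was rare, at 0.237, 0.0641 and 0.104 CPM in the control, 0.619, 0.680 and 0.348 in Splice del, 0.183, 0.208 and 0.0972 in C321fs cells, and 0.484, 0.447 and 0.352 in A333fs. It was tested only through Splice del and A333fs, as its control and C321fs counts were too few for the low-count filter. The Splice del and A333fs libraries lay above those of the control and C321fs, with log2 fold changes against control of 2.03 ± 0.43 (edgeR adjusted p = 0.00101) and 1.64 ± 0.46 (0.0064), while C321fs gave 0.27 ± 0.58 (0.721). The A333fs call was lost with the trend removed (1.36, adjusted p = 0.0233), with DESeq2, and without A333fs replicate 1 or 2 or control replicate 2 or 3 (1.29 to 1.64, adjusted p 0.0140 to 0.0389). LINC00839 was at 0.0694 to 0.257 CPM in the control, 0.453 to 0.826 in Splice del, 0.194 to 0.485 in C321fs cells and 0.516 to 0.763 in A333fs. Its log2 fold changes of 1.77 ± 0.43 in Splice del and 1.80 ± 0.44 in A333fs (edgeR adjusted p = 0.00283 and 0.00216) were lost without control replicate 3, and each also without 1 mutant library (Splice del replicate 1 and A333fs replicate 3, adjusted p 0.0114 to 0.0232 in all 4 fits).

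LINC00888 was at 2.43 to 3.14 CPM in the control, 3.84 to 4.46 in Splice del, 2.72 to 3.05 in C321fs cells and 4.95 to 5.49 in A333fs. It changed by 0.61 ± 0.12 in Splice del (edgeR adjusted p = 0.000626) and 0.96 ± 0.12 in A333fs (7.68e-06). LINC00472, known for its link to better outcome in estrogen receptor positive breast cancer, was at 2.07 to 2.43 CPM in the control, 2.72 to 4.41 in Splice del, 2.34 to 2.57 in C321fs cells and 3.68 to 4.40 in A333fs. Its changes were 0.67 ± 0.16 (edgeR adjusted p = 0.00232) in Splice del and 0.84 ± 0.16 (0.000311) in A333fs. For both genes the Splice del call fell away with the trend removed, at 0.43 and 0.38, and the A333fs call did not. The Splice del call was further lost for LINC00888 without Splice del replicate 3 or control replicate 1 or 3, where the change was 0.54 to 0.57 and so under the fold limit, and for LINC00472 without Splice del replicate 1 or control replicate 1 (0.49 to 0.61, adjusted p 0.0134 to 0.0218). LINC00324 had log2 fold changes of 0.76, 0.65 and 0.74 in Splice del, C321fs and A333fs, and its C321fs value just missed the limit (edgeR adjusted p = 0.0101). Its calls were lost without control replicate 3, Splice del replicate 2 or A333fs replicate 3 (0.62 to 0.67, adjusted p 0.0153 to 0.0182).

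Another 3 genes were called higher in Splice del and C321fs and not in A333fs: LINC00867, LINC01249 and LINC01239. LINC00867 was at 0.814, 0.738 and 1.01 CPM in the control, 1.81, 2.31 and 1.99 in Splice del, 2.53, 2.12 and 2.17 in C321fs cells, and 1.13, 1.28 and 1.11 in A333fs. Splice del and C321fs lay above the control and A333fs without overlap, with log2 fold changes of 1.25 ± 0.18 and 1.42 ± 0.18 (edgeR adjusted p = 3.54e-05 and 2e-05) against 0.46 ± 0.20 (0.0566) in A333fs, and both calls held in every alternative. LINC01249 was at 0.160 to 0.312 CPM in the control, 0.592 to 0.827 in Splice del, 0.590 to 0.822 in C321fs cells and 0.290 to 0.510 in A333fs. Its log2 fold changes were 1.43 ± 0.33 (edgeR adjusted p = 0.00193), 1.52 ± 0.33 (0.00158) and 0.81 ± 0.37 (0.0675), and both calls were lost without control replicate 2, that of Splice del also without Splice del replicate 2 (1.19 to 1.27, adjusted p 0.0120 to 0.0148). LINC01239 had log2 fold changes of 0.62, 0.73 and 0.54, and with the trend removed its Splice del and C321fs values were 0.34 and 0.45 and no longer called.

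LINC01004 was the 1 gene called higher in C321fs and A333fs and not in Splice del. It was at 2.28 to 2.82 CPM in the control, 2.23 to 3.33 in Splice del, 4.02 to 4.86 in C321fs cells and 4.84 to 5.96 in A333fs. The changes were 0.17 ± 0.16 (edgeR adjusted p = 0.393), 0.81 ± 0.15 (0.000503) and 1.04 ± 0.15 (2.53e-05), and both calls held with the trend removed and without any library.

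Counting both directions, 18 of the 176 genes were called in 1 line only, where 11% of all tested genes were. Of the 25 genes called upward, 13 were called in 1 line. In A333fs these were LINC00052 and LINC00883, of which LINC00883 (0.72) was no longer called with the trend removed (0.43). LINC00052, a transcript described in breast cancer cells, was at 0.305, 0.321 and 0.278 CPM in the control, 0.284, 0.561 and 0.313 in Splice del, 0.457, 0.347 and 0.583 in C321fs cells, and 1.06, 0.702 and 1.03 in A333fs. A333fs lay above all other libraries, at a log2 fold change of 1.62 ± 0.32 (edgeR adjusted p = 0.000394) that held in every alternative. The control counts of LINC00052 were too few for the low-count filter, so it was tested only through mutant libraries. In C321fs, LINC00536 went from 0.145 ± 0.067 CPM (SD, n = 3) in the control to 0.594 ± 0.190, a change of 2.00 ± 0.45 (edgeR adjusted p = 0.00178) that was lost without C321fs replicate 3 or control replicate 1 (1.72 and 1.67). The C321fs list also held LINC01359 (1.55), LINC01021 (0.98), LINC01138 (0.83), LINC00342 (0.66) and LINC00969 (0.64). LINC01021 is PURPL, a p53-induced transcript, and rose from 0.556 to 0.994 CPM in the control to 1.30 to 1.74 in C321fs, a call lost without C321fs replicate 1 or 2 or control replicate 1 or 3 (0.80 to 1.0, adjusted p 0.0169 to 0.0317). The calls on LINC01359 and LINC00342 were lost with the trend removed (1.46 and 0.54, adjusted p = 0.015 and 0.0155). LINC01359 was held in only 2 of 12 leave-one-out fits, and was lost without the filter and with the replicate number as a block. LINC00969 was lost in 8 of the 12, with DESeq2 and with that block, and LINC00342 in 6 and with that block. LINC00969 is annotated at several places, and read pairs that mapped to several places were left out, so its counts may be incomplete. In Splice del, the genes were LINC01599 (1.42), LINC00504 (0.99), LINC01140 (0.81), LINC01446 (0.66) and LINC00648 (0.59), of which LINC00504, LINC01140, LINC01446 and LINC00648 were not called with the trend removed (0.67, 0.60, 0.32 and 0.29, adjusted p 0.0109 to 0.0815). LINC01599 was held in 2 of 12 leave-one-out fits and was not called by DESeq2, with RLE scaling, without the filter or with that block. LINC01140 was lost in 9 of the 12, with DESeq2, with RLE scaling and with that block. LINC00504, LINC01446 and LINC00648 were lost in 5, 4 and 3 of the 12, and LINC00648 also with DESeq2 and RLE scaling.

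A total of 6 genes were called lower in at least 1 line and 0 in all 3 by edgeR or DESeq2, where edgeR called 0.71% of all tested genes lower in all 3. At an unadjusted p under 0.05, 9 of the 176 were lower in all 3 lines, where 21.4% of all tested genes were. LINC00312 had the largest decrease: 0.577, 0.930 and 0.556 CPM in the control, 0.542, 0.355 and 0.313 in Splice del, 0.335, 0.382 and 0.421 in C321fs cells, and 0.0968, 0.223 and 0.235 in A333fs. Every library of the mutant lines was under the lowest control library, with log2 fold changes of -0.74 ± 0.31 (edgeR adjusted p = 0.0562), -0.86 ± 0.32 (0.0353) and -1.87 ± 0.37 (0.000485), of which the last was called. This gene is AT-rich (37.4% GC), and with the trend removed the changes were larger, at -1.09, -1.24 and -2.23, and all 3 passed.

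In A333fs, LINC01503, LINC00176 and LINC01573 also fell. LINC01503 was at 0.407, 0.481 and 0.556 CPM in the control and 0.161, 0.191 and 0.205 in A333fs, a change of -1.35 ± 0.35 (edgeR adjusted p = 0.00365), and was at 0.355 to 0.627 CPM in the other mutant lines. LINC00176, which RefSeq lists as protein-coding C20orf204, went from 2.78, 3.56 and 3.85 CPM to 1.94, 1.98 and 1.20, a change of -1.0 ± 0.17 (0.000139). LINC01573 is NALT1, transcribed next to NOTCH1, and went from 2.34, 3.59 and 2.40 CPM to 1.87, 1.44 and 1.06, a change of -0.95 ± 0.21 (0.00123). Groups did not overlap for any of them, but none was called with the trend removed (-1.18, -0.58 and -0.62; adjusted p = 0.0126, 0.00718 and 0.0156), and their GC contents were 56.6, 63.1 and 64.1%. LINC01503 was further lost with DESeq2 and without A333fs replicate 1 or 2 or control replicate 2 or 3 (adjusted p 0.0114 to 0.0154), and LINC01573 without control replicate 2 (-0.71, adjusted p = 0.0116).

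LINC01405 fell in Splice del and C321fs. It was at 1.12, 1.28 and 1.01 CPM in the control, 0.826, 0.443 and 0.383 in Splice del, 0.639, 0.555 and 0.324 in C321fs cells, and 0.775, 0.925 and 1.06 in A333fs. The changes were -1.0 ± 0.28 (edgeR adjusted p = 0.00752), -1.16 ± 0.30 (0.00426) and -0.30 ± 0.26 (0.335). The Splice del call was lost in 6 of the 12 leave-one-out fits (adjusted p 0.0107 to 0.0384), among them those without any 1 of the control libraries, and the C321fs call in 4, without C321fs replicate 2 or 3 or control replicate 1 or 2 (0.0118 to 0.0240). With DESeq2 and with upper-quartile scaling, the Splice del call was lost as well. LINC00116 encodes mitoregulin (MTLN), a small protein of the inner mitochondrial membrane. It was at 17.1, 18.1 and 16.5 CPM in the control, 9.86, 9.87 and 11 in Splice del, 14.4, 11.6 and 8.59 in C321fs cells, and 13.8, 11.3 and 12.6 in A333fs, so that every mutant library was below every control library. The changes were -0.76 ± 0.13 (edgeR adjusted p = 0.000214), -0.58 ± 0.13 (0.00215) and -0.45 ± 0.13 (0.00752), of which the latter 2 were under the fold limit.

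The mutant lines were also compared with each other. Between Splice del and C321fs, 3 genes were higher in Splice del (1.76% of all tested genes were) and 1 lower (0.879%). LINC01016 differed by 1.15 ± 0.06 (edgeR adjusted p = 9.17e-10), LINC01468 by 1.76 ± 0.41 (0.00957) and LINC00673 by 0.60 ± 0.11 (0.00123), and LINC01004 by -0.64 ± 0.15 (0.00849). LINC00673 stood apart in C321fs, at 4.60, 4.68 and 4.79 CPM against 5.84 to 7.82 in all other libraries. The call on LINC01468 was lost in 8 and that on LINC01004 in 9 of the 12 leave-one-out fits, and that on LINC00673 without C321fs replicate 1 or Splice del replicate 1 (0.58 and 0.51).

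Between A333fs and C321fs, 3 genes were higher in A333fs (2.47% of all genes) and 4 lower (3.08%). The first were LINC00888 (0.85 ± 0.12, edgeR adjusted p = 6.98e-05), LINC01016 (0.77 ± 0.06, 6.45e-08) and LINC00472 (0.73 ± 0.16, 0.00268). The latter were LINC00867 (-0.95 ± 0.17, 0.000521), LINC01138 (-0.79 ± 0.16, 0.00177), LINC00623 (-0.78 ± 0.13, 0.000401) and LINC00957 (-0.74 ± 0.11, 0.000127). LINC00623 and LINC00957 were not called against control in any line: LINC00957 was at 4.13 to 4.81 CPM in the control, 5.35 to 5.88 in C321fs and 3.0 to 3.85 in A333fs. Without A333fs replicate 3 the value for LINC01138 was -0.65 (adjusted p = 0.013) so that its call was lost, and the LINC00472 call was lost without that library or C321fs replicate 1 (0.67 to 0.70, adjusted p 0.0102 to 0.0154). With the trend removed LINC00957 was at -0.53, under the fold limit. It overlaps exons of RASA4CP on the other strand, and the counting ignored strand.

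Between A333fs and Splice del, 2 genes were higher in A333fs (1.03% of all genes) and 4 lower (1.97%). LINC00052 (1.27 ± 0.29, edgeR adjusted p = 0.00545) and LINC01004 (0.87 ± 0.14, 0.00052) were higher. LINC00160, like LINC01016 an estrogen-responsive transcript, was lower by -1.32 ± 0.33 (0.00948), at 0.516, 0.561 and 0.662 CPM in Splice del against 0.258, 0.191 and 0.235 in A333fs. It overlapped the control range (0.257 to 0.521 CPM) in both lines, and its call was lost in 9 of the 12 leave-one-out fits. LINC00504 (-1.16 ± 0.26, 0.00457), LINC00176 (-0.83 ± 0.17, 0.00308) and LINC00867 (-0.79 ± 0.17, 0.00337) were the other genes lower in A333fs. The A333fs libraries of LINC00504 were spread widely, at 1.03, 3.32 and 1.56 CPM. Leaving out 1 library of either line removed the calls of this pair for LINC00052, LINC00504 and LINC00867 in 4 of 12 fits each and for LINC00176 in 3, the LINC00176 call was lost with the trend removed (-0.60, adjusted p = 0.0102), and DESeq2 did not call LINC00052.

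Of the listed LINC genes with a known role, several kept levels within the limits of the calls. LINC00657 (NORAD) was at 484 ± 32, 593 ± 18, 551 ± 52 and 587 ± 16 CPM (SD, n = 3) in the control, Splice del, C321fs and A333fs, with log2 fold changes of 0.29, 0.19 and 0.28 (edgeR adjusted p = 0.00176, 0.0298 and 0.00214). LINC00467 had log2 fold changes of 0.19, 0.30 and 0.31, and LINC00152 (CYTOR) of -0.25, -0.17 and -0.05, all at adjusted p above 0.01. Of the small-protein genes, LINC00493 (SMIM26) had values of -0.12, -0.15 and 0.01, LINC01420 (NBDY, a protein of the mRNA decapping complex) of -0.17, -0.13 and -0.09, and LINC00998 (SMIM30) of 0.24, 0.23 and 0.43. Among the 13 tested genes that RefSeq lists as protein-coding, 1 was called in Splice del (LINC00116) and 1 in A333fs (LINC00176), both lower. None was called higher by edgeR or DESeq2 in any line, and 2, 2 and 1 were higher at an unadjusted p under 0.05. Of all tested genes, edgeR called 6.21, 4.63 and 5.46% higher, and 13 genes are too few to be set apart from such shares. The 162 tested lncRNA entries held the remaining calls against control.

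Other noncoding classes were read from the same fit. Of 412 tested antisense transcripts, 30 rose and 8 fell in Splice del, 30 and 3 in C321fs cells, and 28 and 4 in A333fs. Those called higher were 7.3, 7.3 and 6.8% of the tested antisense transcripts, and the median log2 fold changes were 0.13, 0.14 and 0.09. As among the LINC genes, more antisense transcripts were called higher than lower in every mutant line. Their median level was 0.920 CPM per kb, near the 0.943 of the LINC genes. Of 15 tested microRNA host genes, 2, 5 and 4 rose and 1 fell, in Splice del. Of 21 snoRNA host genes, 1 fell in Splice del and 2 rose in C321fs, and their median was 21.1 CPM per kb.

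GC content was a property that the choice of genes did not use and that moved with the change. Over the 176 genes, Spearman's rho between GC content and log2 fold change was -0.32, -0.36 and -0.39 in Splice del, C321fs and A333fs, and over all tested genes -0.51, -0.55 and -0.67. These values are across genes, which share libraries and are no independent replicates. With the trend removed, rho was 0.06, 0.02 and 0.15 for the LINC genes. Of the 50 LINC genes in the band of lowest GC content (up to 45%), 11, 6 and 7 were called higher, and of the 39 in the band of highest content (above 55%), 0 were called higher by edgeR or by DESeq2 in any line, 4, 2 and 1 were higher at an unadjusted p under 0.05, and 1, 1 and 3 were called lower. Of all tested genes, 10.1, 7.95 and 9.49% were called higher in the lowest band, and in the highest band 2.92, 2.31 and 2.01% were called higher and 10.2, 4.62 and 18.3% lower. With the trend removed, the lowest band held 3, 4 and 4 genes called higher, and the highest band 2, 0 and 1. Of all 4930 tested genes in each of these bands, 197, 131 and 182 were then called higher in the lowest and 252, 188 and 194 in the highest. In total 10, 9 and 9 genes were then called higher, of which 8 in each line were among the original calls, and 3, 3 and 2 were called lower.

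**Figure D4:**
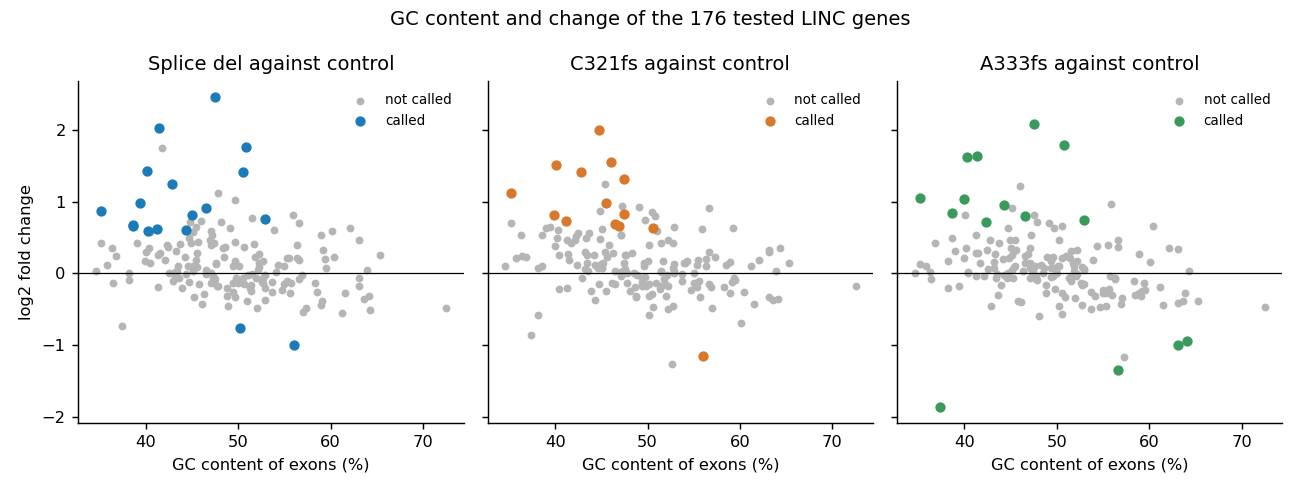
GC content of the exons (horizontal axis, %) and log2 fold change against control (vertical axis) of the 176 tested LINC genes, 1 panel per mutant line, with called genes in color. Calls upward sit at low and middle GC content, and no gene above 55% GC was called higher.

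Many lncRNAs are transcribed beside a protein-coding gene, so each tested LINC gene was set beside the nearest tested protein-coding gene. For 123 genes it lay within 100000 bases, at a median gap of 13912 bases. Spearman's rho between the log2 fold changes of the pairs was 0.293, 0.233 and 0.320 in Splice del, C321fs and A333fs, where 11448 pairs of neighbouring protein-coding genes (median gap 4147 bases) gave 0.357, 0.365 and 0.494. Both members of a pair share libraries and regional base composition. Of the LINC genes called, the neighbour was called in the same direction for 1 of 11, 1 of 8 and 3 of 9, and in the opposite direction for 0. Among the protein-coding pairs these shares were 13.3, 9.4 and 21.9% in the same direction, with 22, 9 and 25 pairs in the opposite one.

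The pairs differed from case to case. LINC01573 lies 2056 bases from NOTCH1, a receptor of the Notch pathway, which was at 33.6 ± 2.5 CPM in the control and 20.8 ± 0.95 in A333fs (SD, n = 3) and fell by 0.69 on the log2 scale (edgeR adjusted p = 1.24e-05). LINC01468 lies 133220 bases from DKK1, a secreted Wnt inhibitor, which was at 5.97, 12.6, 8.39 and 13.8 CPM on average in the control, Splice del, C321fs and A333fs. DKK1 and LINC01468 were both called higher in Splice del and A333fs, and the DKK1 value in C321fs was 0.49. LINC00160 lies 5586 bases from the chloride channel gene CLIC6, which went from 58.4 ± 1.9 CPM in the control to 109 ± 6.7 in Splice del (0.90, edgeR adjusted p = 8.7e-08) and was not called in the other lines (-0.08 and 0.10). LINC01503 and IER5L, 158662 bases apart, both fell in A333fs, by 1.35 and 1.09 on the log2 scale.

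LINC01405 and CUX2, 96578 bases apart, both fell in C321fs (-1.16 and -0.83), while in A333fs CUX2 was at 0.57 and LINC01405 at -0.30, neither of them called.

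For other called genes the neighbour did not pass. LINC01016 lies 100382 bases from LEMD2, whose log2 fold changes were -0.11, -0.10 and -0.37. LINC00867 and FAM204A, 14781 bases apart, had values of 1.25, 1.42 and 0.46 and of 0.37, 0.27 and 0.53. LINC01355 lies 19172 bases from HNRNPR, with values of 0.01, 0.05 and 0.18. LINC00324 lies 778 bases from the telomere gene CTC1, whose values were -0.28, -0.35 and -0.38 where LINC00324 was at 0.76, 0.65 and 0.74. LINC00312 and LMCD1, 3657 bases apart, had values of -1.87 and -0.35 in A333fs.

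**Figure D5:**
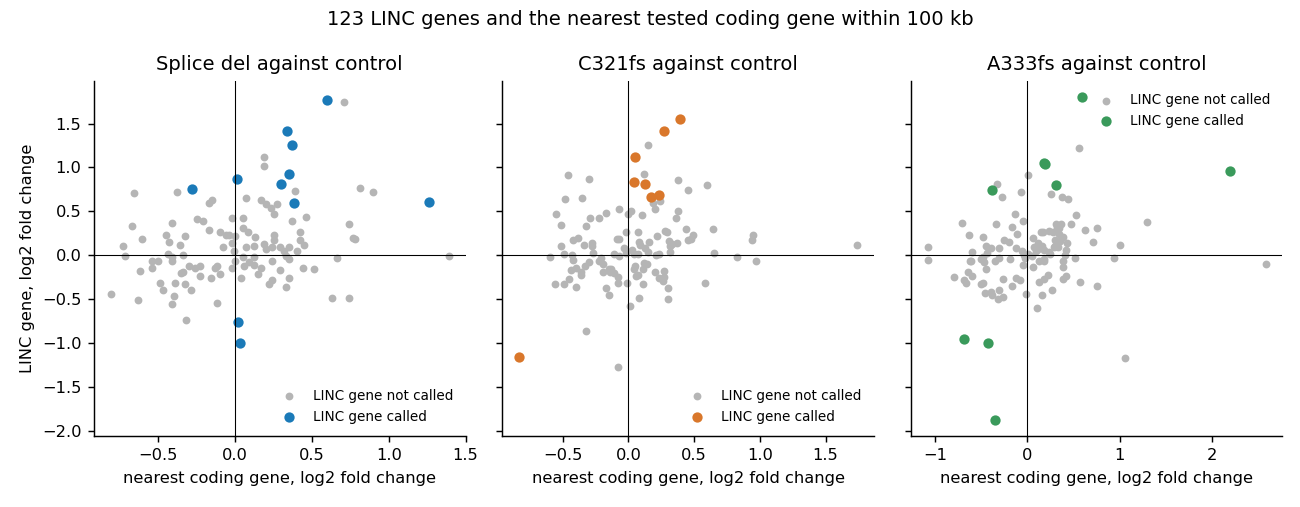
Log2 fold change against control of 123 LINC genes (vertical axis) and of the nearest tested protein-coding gene within 100 kb (horizontal axis), 1 panel per mutant line, with called LINC genes in color. Most called LINC genes lie far from 0 on the vertical axis with a neighbour between -0.5 and 0.5, and the point farthest right among the called ones in A333fs is LINC00888 (0.96) with MCF2L2 (2.2). MCF2L2 was rare, at 0.102 ± 0.037 CPM in the control and 0.481 ± 0.197 in A333fs (SD, n = 3). It was also called higher in C321fs (1.74), where LINC00888 was not called.

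The 31 genes not tested had at most 95 counts over all libraries. In 3 of them a line did not exceed 3 counts in any library. LINC01519 had 0, 1 and 1 counts in the control, 2, 3 and 2 in Splice del, 2, 2 and 1 in C321fs cells, and 8, 18 and 11 in A333fs. Its A333fs counts carried it past the limit of 50, so they describe the choice and no fold is given. LINC01515 had 1 to 2 counts in the control libraries and 4 to 13 in the mutant libraries. LINC01314 had 2 to 3 counts in the control and 2 to 9 in the mutant libraries. These values cover counting error only and were not tested.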

How the data were processed

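RNA was extracted from T47D lines and read as paired ends, and the authors deposited 1 table of raw read counts per gene, made with featureCounts 1.6.4 on hg38, per the file headers. Strand was ignored, and read pairs that mapped to several places or genes were left out. The aligner is named differently in the header's path and the processing notes, as STAR and HISAT2. The growth medium also differs between the labels and the study's methods. ChIP-seq samples were not used here.

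Counts were fitted with edgeR 4.0.16 in R 4.3.3 (TMM factors, low-count filter by line, quasi-likelihood test, 1 coefficient per line, all 12 libraries) on 14789 genes, with Benjamini-Hochberg adjustment over all of them. A call needed an adjusted p below 0.01 and a fold change above 1.5, the limits the study used. Fold changes carry a prior count. SE was taken from the log2 fold change and the F statistic. CPM used TMM-scaled totals. Total depth was 27872208 to 36788024 counts per library. The fit was tested on simulated data. Alternatives were RLE and upper-quartile scaling, no filter, other limits, DESeq2 1.42.0, a loess correction for GC content and exon length (span 0.3), the replicate number as a block, and leaving out each library.

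Named genes were the 4 largest calls per direction and line, those called in all 3 lines, the 3 largest per direction and pair of lines, the 8 highest per kb, those at the limit of 50 counts, a list with known roles, and nearest coding genes; further called genes were picked for naming from their values. Members and lists were chosen with earlier results of these data known. The study calls the 3 libraries of a line biological replicates, and the labels do not say whether these were separate cultures, so p-values measure the spread between these libraries. Each line was 1 pool, so line and mutant cannot be told apart. Libraries with the same replicate number had residual correlations of -0.123 to 0.165 over 18 pairs and were not treated as paired. Replicate libraries differed by more than counting noise (chi-square per gene 2.17 to 28.4), so none was a repeated deposit. Of the genes, 16 overlap exons of another gene and 9 are annotated at several places. Promoter windows and gene types came from RefSeq (GRCh38.p14).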

Additional observations from a re-analysis of the deposited data

Results flagged for a closer look

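Each value here is a log2 difference between 2 mutant lines, and so between their changes against the shared control, that passed edgeR's quasi-likelihood test of the difference itself. For Splice del over C321fs the values were 1.76 for LINC01468, 1.15 for LINC01016, 0.60 for LINC00673 and -0.64 for LINC01004. For A333fs over C321fs they were 0.85 for LINC00888, 0.77 for LINC01016, 0.73 for LINC00472, -0.74 for LINC00957, -0.78 for LINC00623, -0.79 for LINC01138 and -0.95 for LINC00867. For A333fs over Splice del they were 1.27 for LINC00052, 0.87 for LINC01004, -0.79 for LINC00867, -0.83 for LINC00176, -1.16 for LINC00504 and -1.32 for LINC00160. LINC01016, LINC00867 and LINC01004 passed in 2 of the 3 pairs each. Each line had 3 libraries, too few for a test of single libraries that stand apart.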

How the results depend on the processing

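Of the single-gene values recomputed, 1799 kept their direction and side of the limits, 77 lost a call, 13 gained one and 0 reversed. Of the counts of called LINC genes, these moved by over 1.5 times. With the GC and length trend removed, 10 were higher in Splice del, 3 lower in C321fs, 2 lower in A333fs and 1 lower in all 3 lines (LINC00312). With upper-quartile scaling, which moved the median of all genes by 0.09 to 0.11, 1 was lower in Splice del, 23 higher in C321fs and 6 higher in all 3. DESeq2 gave 1 lower in Splice del and 2 lower in C321fs; RLE scaling gave 2 lower in C321fs; no filter gave 2 lower in C321fs and 11 between A333fs and C321fs; genes with at least 200 counts gave 2 lower in A333fs. At an adjusted p below 0.05, 3 were lower in C321fs, 8 and 16 differed between Splice del and C321fs and between A333fs and C321fs, and 70 differed among the lines. Without a minimum fold change, 8, 10 and 12 were lower in Splice del, C321fs and A333fs, 7 and 11 differed in the same pairs, and 5 and 4 were higher and lower in all 3. The cause of these moves was not tested.

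With the replicate number as a block, 2 were lower in C321fs and no other count moved by over 1.5 times; same-numbered libraries shared only a number (mean residual correlation -0.00915). Leaving out each library gave 8 to 16 higher and 1 to 2 lower in Splice del, 8 to 14 and 0 to 3 in C321fs, 9 to 13 and 2 to 6 in A333fs, 1 to 4, 5 to 11 and 1 to 7 between Splice del and C321fs, A333fs and C321fs, and A333fs and Splice del, 30 to 45 differing among the lines, and 1 to 4 higher and 0 to 0 lower in all 3. Genes without exon overlap moved no count by over 1.5 times. Of the 207 genes, 96 were under 1 CPM on average, where small differences were not detectable at this depth.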
